A study of Mus musculus with 3 samples.

Results

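The 4 genes followed here are those whose peptides are best known from the pancreatic islet, namely the amylin precursor Iapp, the insulin precursors Ins1 and Ins2, and the urocortin 3 precursor Ucn3. They are 4 of 24248 genes that received a symbol, of which 17936 were above 0 in at least 1 library, and all 4 were found. The list was chosen by the summed FPKM of these genes in the same 3 libraries, so their levels and ratios below are descriptions and carry no test. Villous cells of the upper small intestine were sorted from C57BL/6 mice for 3 RNA-seq libraries, and each library was made from 1 pool of individual RNA samples. GIP-GFP holds cells of a reporter line that marks expression of the incretin hormone GIP. Ngn3-TOMATO holds cells of male Ngn3-Cre mice crossed to a ROSA26 tomato indicator, in which the cells and their descendants stay labelled once Ngn3-Cre has been active. Ngn3-negative holds the unlabelled epithelial cells of that cross, and the tomato sorts left out cells stained for the blood cell marker CD45. No CD45 gate and no sex are stated for the GIP-GFP mice, and the sources used here do not give how many mice a pool holds.

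In the islet, beta cells make proinsulin, which prohormone convertases and carboxypeptidase E trim to insulin inside the secretory granule. Amylin is released with insulin from the same granules and acts through the calcitonin receptor joined to a receptor activity-modifying protein. Urocortin 3, a member of the corticotropin-releasing factor family, marks mature beta cells of the mouse and acts through the receptor CRHR2, including on somatostatin cells of the islet. Enteroendocrine cells of the gut share many transcription factors and granule proteins with islet cells. Mice carry a pair of insulin genes, Ins1 and Ins2, where most mammals carry a single one.

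Because the insulin genes are copies of each other, the first 300 bases of their coding sequences are shown, from the start codon on, 5′ to 3′, with capitals at the bases that differ between them. Ins1 lies on the plus strand of chromosome 19, with these bases at chr19:52264624-52264923, and Ins2 on the minus strand of chromosome 7, at chr7:142678746-142679533, a span that includes an intron (mm10, GENCODE M21 transcripts).
Ins1: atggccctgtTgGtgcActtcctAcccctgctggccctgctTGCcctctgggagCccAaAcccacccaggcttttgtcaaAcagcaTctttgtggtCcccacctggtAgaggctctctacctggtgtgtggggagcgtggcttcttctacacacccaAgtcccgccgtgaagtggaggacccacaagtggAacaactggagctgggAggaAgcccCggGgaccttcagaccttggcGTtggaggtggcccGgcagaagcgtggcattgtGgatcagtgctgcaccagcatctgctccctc
Ins2: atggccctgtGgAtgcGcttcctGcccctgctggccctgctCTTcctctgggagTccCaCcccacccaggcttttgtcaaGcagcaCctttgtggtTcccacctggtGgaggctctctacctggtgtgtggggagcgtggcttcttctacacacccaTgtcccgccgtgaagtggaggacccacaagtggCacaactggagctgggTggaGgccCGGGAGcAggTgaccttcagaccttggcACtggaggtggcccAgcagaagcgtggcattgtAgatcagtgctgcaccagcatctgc
The whole coding sequences are 327 and 333 bases long and match at 302 of the aligned bases, with 25 mismatches and 6 bases found only in Ins2. That is 92.4% identity, and the longest identical run is 56 bases. Of the windows of 50 bases in the Ins1 coding sequence, 2.52% also occur in Ins2, against 12.0% of windows of 36 bases. Reads from such shared stretches could be assigned to either gene, so the split between Ins1 and Ins2 is uncertain to that extent. The sources used here do not give the read length.

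Insulin transcripts were found in Ngn3-TOMATO alone. Levels are given as scaled FPKM, and where 3 levels of a gene follow each other they are in the order GIP-GFP, Ngn3-TOMATO, Ngn3-negative. Scaled FPKM is a value per length of transcript that is the deposited FPKM divided by 1 number common to all libraries. Ins2 (Ins2 transcript models uc009kog.2 and uc009koh.2, chromosome 7, 142678656 to 142679708) stood at 55.5 scaled FPKM in Ngn3-TOMATO (95% counting interval 46.5 to 64.5) and was listed at 0 in GIP-GFP and in Ngn3-negative. Ins1 (uc008hwd.1, chromosome 19, 52264323 to 52265458) stood at 7.41 in Ngn3-TOMATO (5.96 to 8.86) and was also listed at 0 in both other libraries. No fold of these genes is given against a listed 0, since its size would rest on the pseudocount. An exact 0 in these files can also be a failed estimate, but these zeros had the status OK. The intervals come from the deposited FPKM limits and cover counting and read assignment within a library only, because no library was repeated.

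The listed zeros were set beside genes of like level. Among 4335 other genes within 2-fold of the Ins2 level in Ngn3-TOMATO, 9 were listed at 0 in GIP-GFP, 10 in Ngn3-negative and 2 in both. Among 3296 other genes within 2-fold of the Ins1 level, 44 were listed at 0 in GIP-GFP, 75 in Ngn3-negative and 18 in both. A listed 0 in both libraries was thus held by 0.0461% of genes at the level of Ins2 and 0.546% of genes at the level of Ins1. Ins1 and Ins2 were chosen on these levels, and the other genes were not limited to endocrine ones. Nothing is therefore read from these shares. All 6 transcript models of the 4 genes had the status OK in every library, which means that the quantification reported no failure for them.

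Ins2 exceeded Ins1 in Ngn3-TOMATO, by an amount that rests on the lengths of the transcript models. In scaled FPKM, Ins2 was 7.49 times Ins1. The deposited limits correspond to 100 fragments for Ins1 and 147.4 for the Ins2 models together. The Ins2 limits also carry the uncertain split of reads between its models, so 147.4 is too low and no ratio of fragments is read from it. Mean read depth per base was 4.94 for Ins1, and 15.7 and 21.3 for the Ins2 models above 0. The Ins1 model is 1018 bases long and ends 443 bases past the end of the RefSeq gene, whereas the Ins2 models are 451 to 565 bases long. The Ins2 signal was divided between a model of 463 bases, at 23.5 scaled FPKM (17.5 to 29.6), and one of 451 bases, at 32.0 (25.1 to 38.8). The third Ins2 model, of 565 bases, was listed at 0 in all 3 libraries. These Ins2 models share both ends, and their split is uncertain.

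Amylin transcripts were abundant in both reporter libraries, in contrast to insulin. Iapp (uc009epb.2, chromosome 6, 142298425 to 142303819) had a level of 564.6 scaled FPKM for GIP-GFP (539.7 to 589.6), 525.9 for Ngn3-TOMATO (510.3 to 541.5) and 7.48 for the Ngn3-negative cells (5.31 to 9.64). It ranked 155th in GIP-GFP among 13064 genes at 1 scaled FPKM or more, 193rd of 13148 in Ngn3-TOMATO and 9298th of 11973 in Ngn3-negative. The reporter libraries were close to each other, and both stood far above Ngn3-negative. The log2 ratio of GIP-GFP to Ngn3-TOMATO, with a pseudocount of 1 on each value, was 0.10 (0.03 to 0.18), beside a median of 0.08 over all genes. With the libraries scaled by the median ratio of genes it was 0.05 (-0.03 to 0.12), an interval that includes 0. Against Ngn3-negative the log2 ratio of Iapp was 6.06 (5.69 to 6.43) for GIP-GFP and 5.96 (5.59 to 6.33) for Ngn3-TOMATO, 2 values that share the Ngn3-negative library.

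Urocortin 3 followed the insulin genes and not Iapp. Ucn3 (uc007pjh.2, chromosome 13, 3940688 to 3945349) stood at 136.6 scaled FPKM in Ngn3-TOMATO (131.9 to 141.3), 3.46 in GIP-GFP (2.26 to 4.66) and 2.26 in Ngn3-negative (1.56 to 2.96). Ngn3-TOMATO was thus high and the other libraries were low with overlapping intervals. It ranked 1046th in Ngn3-TOMATO, 11494th in GIP-GFP and 11021st in Ngn3-negative. The deposited limits correspond to 32 fragments in GIP-GFP and 40 in Ngn3-negative, so Ucn3 was detected in both. Between the reporter libraries the log2 ratio of Ucn3 was -4.95 (-5.34 to -4.56), with GIP-GFP 39.5-fold lower without the pseudocount. Relative to Ngn3-negative its log2 ratio was 5.40 in Ngn3-TOMATO (5.09 to 5.71) and 0.45 in GIP-GFP (-0.04 to 0.95), the latter an interval that includes 0.

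**Figure D1:**
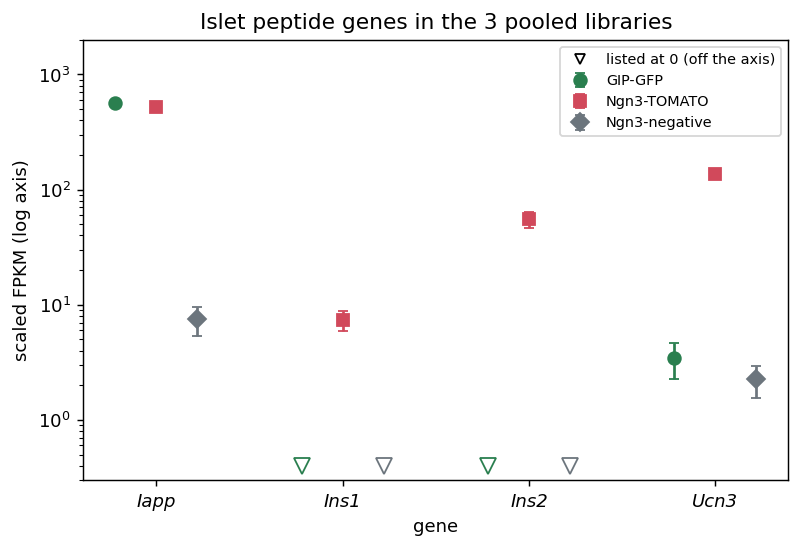
Levels of Iapp, Ins1, Ins2 and Ucn3 in scaled FPKM (log axis) in the 3 pooled libraries, 1 library per group. Bars are 95% counting intervals from the deposited limits. Open triangles near the lower edge mark values listed at 0, and their height on the axis is not a level. Iapp is at 564.6 and 525.9 in the reporter libraries, while Ins1, Ins2 and Ucn3 are highest in Ngn3-TOMATO.

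In order of level, Ngn3-TOMATO held Iapp, Ucn3, Ins2 and Ins1 from highest to lowest, and no intervals of neighbours in that order overlapped. In GIP-GFP only Iapp and Ucn3 were above 0, and in Ngn3-negative the same 2 genes in the same order. Iapp and Ucn3 exceeded their Ngn3-negative level by 2-fold or more in Ngn3-TOMATO, as did 19.2% of 13451 genes tested, while 9.92% were lower by as much. Ins1 and Ins2 passed the filter through their Ngn3-TOMATO level alone and are not counted, since their other value is a listed 0. With totals set equal, 53.1% and not 66.0% of such differences were toward higher levels in Ngn3-TOMATO. Between the reporter libraries Ucn3 was lower in GIP-GFP by 2-fold or more, as were 8.75% of 13751 genes, and Iapp was within 2-fold, while 8.03% of genes were higher by as much. In GIP-GFP against Ngn3-negative 1 of the 2 genes that reached 1 scaled FPKM was at least 2-fold higher, against 21.1% of 13478 genes. The genes were chosen for this pattern, so nothing is read from these counts. In these bulk libraries fewer cells of a type and less RNA per cell cannot be told apart.

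The scatter of both reporter libraries places the 4 genes beside other hormones. Sst, the somatostatin precursor, lay near the diagonal as Iapp did, at 15404, 18405 and 258.6 scaled FPKM. The ghrelin precursor Ghrl was at 1143, 7333 and 78.0, and the proglucagon gene Gcg at 356.3, 2987 and 63.2. Cartpt, a neuropeptide precursor also found in islets, had a pattern close to that of Ucn3, at 1.04, 231.8 and 2.67. Ppy, the pancreatic polypeptide precursor, was at 4.08 and 15.2 in the reporter libraries and was listed at 0 in Ngn3-negative. The peptide YY gene Pyy was the exception in this list, higher in GIP-GFP, at 4372, 1629 and 38.6. Npy, the neuropeptide Y precursor, was listed at 0 in all 3 libraries. Of the 6 other islet hormone genes tested, 4 were at least 2-fold lower and 1 at least 2-fold higher in GIP-GFP than in Ngn3-TOMATO, against 8.75% and 8.03% of all genes. The median log2 ratio was -2.18, beside 0.08 for all genes.

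**Figure D2:**
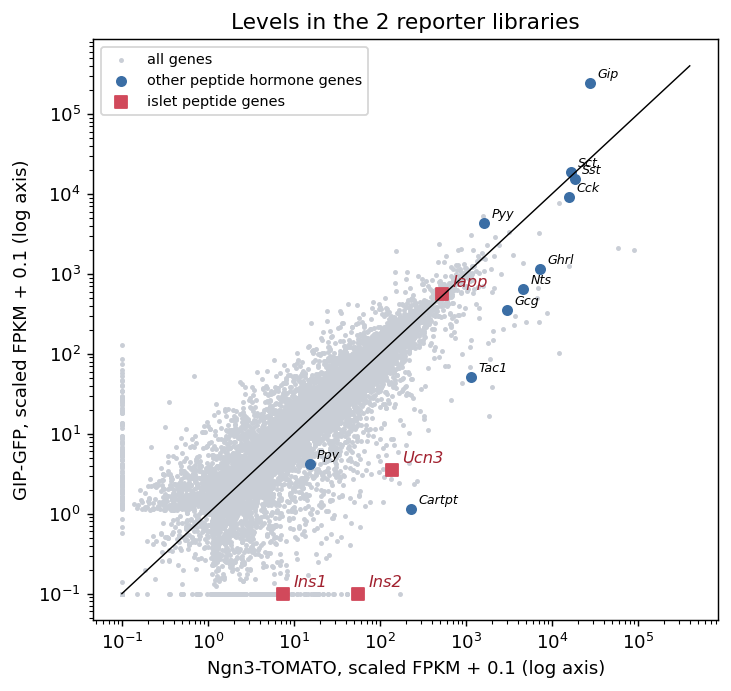
Level of each gene in GIP-GFP against Ngn3-TOMATO, both as scaled FPKM plus 0.1 on log axes, with 1 pooled library per axis and the line of equal levels. Iapp lies close to the line at 564.6 and 525.9, Ucn3 lies far below it, and Ins1 and Ins2 lie at the lower edge, where values listed at 0 in GIP-GFP are drawn.

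The libraries differ in how much endocrine RNA they hold, so levels were also read relative to the granins Chga and Chgb, proteins of hormone granules. Chga was at 321.9, 8825 and 124.7 scaled FPKM, and Chgb at 7657, 12084 and 192.0. Iapp amounted to 5.96% of Chga in Ngn3-TOMATO and 5.99% in Ngn3-negative, and to 175.4% in GIP-GFP, where Chga itself was low. Of Chgb, Iapp amounted to 7.37%, 4.35% and 3.89%. Ucn3 amounted to 1.07%, 1.55% and 1.81% of Chga, and to 0.0452%, 1.13% and 1.18% of Chgb. How far GIP-GFP stood from Ngn3-TOMATO thus depended on the granin: Iapp differed much by Chga and little by Chgb, and Ucn3 the reverse. The proportions of Iapp and Ucn3 to the granins were thus alike in the tomato-positive and tomato-negative sorts, although the levels differed 70.4-fold for Iapp and 60.4-fold for Ucn3.

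The same proportions put a scale on the listed zeros of the insulin genes. At its Ngn3-TOMATO proportion to Chga, Ins2 would stand at 0.785 scaled FPKM in Ngn3-negative and Ins1 at 0.105. Both are under the 1 scaled FPKM used here as the lowest level compared, which is a filter and not a limit of detection. Lower values above 0 were listed in Ngn3-negative, such as Pcsk2 at 0.0173. Whether insulin transcripts at these levels would have been detected was not tested. In GIP-GFP the levels at the same proportions are 2.02 by Chga and 35.2 by Chgb for Ins2, and 0.270 and 4.69 for Ins1. For Ucn3 they are 4.98 by Chga and 86.6 by Chgb, beside the measured 3.46. Relative to Gip itself, Iapp amounted to 0.234%, 1.88% and 1.03%.

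Genes of the same peptide families were mostly at or near 0. In the calcitonin family, Calca, Calcb and Adm2 stayed under 1 scaled FPKM in all 3 libraries, and the adrenomedullin gene Adm was at 4.26, 9.79 and 2.68. In the corticotropin-releasing factor family, Crh and Ucn were listed at 0 in all 3 libraries, and Ucn2 and the binding protein gene Crhbp stayed under 1. Iapp and Ucn3 were thus the most abundant members of their families in Ngn3-TOMATO. In the insulin superfamily, Insl6 was at 56.7, 45.6 and 48.5 and Insl3 at 13.7, 31.8 and 18.3, so both were present in the tomato-negative sort as well. Insl5, a colonic enteroendocrine peptide gene, was at 1.46, 0.584 and 0. Igf2, which lies near Ins2 on chromosome 7, was at 0.425, 1.99 and 3.70, and so was highest in Ngn3-negative. Rln3 was listed at 0 in all 3 libraries, and Rln1 at 0 in all but GIP-GFP.

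Receptors for these peptides were low or at like levels across the libraries, apart from Insrr, Ramp1 and Ramp3. Insr, the insulin receptor gene, was at 22.5, 29.9 and 27.7 scaled FPKM, within 2-fold in every comparison. Its relative Insrr, which encodes an orphan receptor, was at 1.99, 12.8 and 1.23. Calcr, which encodes the core of the amylin receptor, was at 0.0197 in Ngn3-TOMATO and listed at 0 in the others. Of its partners, Ramp2 was at 177.3, 145.4 and 134.3, Ramp1 at 4.17, 51.2 and 8.82 and Ramp3 at 4.81, 6.77 and 0.310. The urocortin 3 receptor gene Crhr2 was at 2.00, 0.931 and 0.0321, and Crhr1 was listed at 0 in all 3 libraries. Relative to Ngn3-negative, 3 of 7 genes tested were higher by 2-fold or more in Ngn3-TOMATO and none lower, against 19.2% and 9.92% of all genes, with a median log2 ratio of 0.77 beside 0.04 for all genes.

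Most genes of the enzymes that mature these peptides were higher in both reporter libraries than in Ngn3-negative, though not all were abundant. Cpe, which removes the basic residues left by the convertases, was at 5294, 1561 and 28.8 scaled FPKM. The convertase gene Pcsk1 was at 426.2, 575.8 and 15.4. Pcsk2, the other convertase of proinsulin and proamylin, was low, at 18.6, 9.21 and 0.0173. Pam, which amidates peptides such as amylin, was at 381.7, 202.1 and 8.12. Of the 7 genes of prohormone processing, 6 were at least 2-fold higher in each reporter library than in Ngn3-negative, against 21.1% of all genes for GIP-GFP and 19.2% for Ngn3-TOMATO. The median log2 ratios were 5.31 and 5.14, beside 0.07 and 0.04 for all genes. The exception was Furin, a convertase of most cell types, at 50.1, 46.8 and 39.4.

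Transcripts of islet granule proteins were mostly shared as well. The list holds 10 genes, of which Slc30a8 stayed under 1 scaled FPKM in every library and was not tested. Of 9 granule genes tested, 8 were higher than in Ngn3-negative by 2-fold or more in each reporter library, against 19.2% of all genes for Ngn3-TOMATO and 21.1% for GIP-GFP. The remaining gene, Sytl4 in GIP-GFP, was lower, as were 13.7% of all genes, while in Ngn3-TOMATO it was Ero1b that did not reach 2-fold. The median log2 ratio was 5.60 in Ngn3-TOMATO and 4.75 in GIP-GFP, beside 0.04 and 0.07 for all genes. Between the reporter libraries 3 were higher and 3 lower in GIP-GFP, against 8.03% and 8.75% of all genes. Vgf, a granin-like precursor, was among the lower ones, at 31.0, 220.7 and 2.57 scaled FPKM, as was Sytl4, the granuphilin gene, at 1.78, 11.9 and 5.21.

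Transcription factors that act in beta cells were present in part. The homeodomain factor gene Isl1 was at 772.5, 147.7 and 3.24 scaled FPKM, the paired box factor gene Pax6 at 502.5, 113.9 and 3.09, and the endocrine factor gene Rfx6 at 1066, 205.6 and 6.61. Neurod1, which acts downstream of Ngn3, was at 392.7, 605.9 and 11.3. Pdx1, an activator of the insulin genes that also acts in the duodenum, was at 75.0, 22.6 and 15.2. These factors were abundant in GIP-GFP, where Ins1 and Ins2 were listed at 0.

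The factors most closely tied to beta cells were at the bottom of the range. Mafa, an activator of insulin transcription in mature beta cells, was at 0.182 in Ngn3-TOMATO and listed at 0 in both other libraries. Nkx6-1, which maintains beta cell identity, was at 0.0920 in Ngn3-TOMATO and listed at 0 in both others. Higher in Ngn3-TOMATO than in GIP-GFP, as the insulin genes and Ucn3 were, stood Glis3 (4.90 in GIP-GFP and 30.5 in Ngn3-TOMATO), Mnx1 (3.36 and 19.0) and Pax4 (21.9 and 61.2). Of 18 factors tested, 6 were higher and these 3 lower by 2-fold or more in GIP-GFP than in Ngn3-TOMATO, against 8.03% and 8.75% of all genes. Among factors of other islet cells, the delta cell factor gene Hhex was at 48.6, 44.5 and 1.12 scaled FPKM, and Irx1 was listed at 0 in all 3 libraries. Against Ngn3-negative, 13 of the 18 beta cell factors were higher and 1 lower by 2-fold or more in each reporter library. Of all genes, 19.2% were higher and 9.92% lower in Ngn3-TOMATO, and 21.1% and 13.7% in GIP-GFP.

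Genes of beta cell glucose sensing were also split between high and very low levels. Abcc8 and Kcnj11, the subunits of the ATP-sensitive potassium channel, were at 445.3, 82.7 and 1.90 and at 120.5, 25.8 and 1.14 scaled FPKM. The GLP-1 receptor gene Glp1r was at 8.54, 42.6 and 0.394, so it was higher in Ngn3-TOMATO. G6pc2, an islet glucose-6-phosphatase gene, was at 0.927, 0.175 and 0. Slc30a8, the zinc transporter gene of the insulin granule and a member of the granule list, was at 0.165, 0.399 and 0. Both thus stayed under 1 in the library that held the insulin transcripts. Whether such levels, or those of Mafa and Nkx6-1, bear on the source of the insulin transcripts was not tested. Slc2a2, the glucose transporter gene shared by beta cells and enterocytes, was lower in both reporter libraries, at 32.3, 34.9 and 211.6. Of 11 genes of this list tested, 5 were higher and 3 lower by 2-fold or more in GIP-GFP than in Ngn3-TOMATO, against 8.03% and 8.75% of all genes. The median log2 ratio was 0.84, beside 0.08 for all genes. Cacna1d, a calcium channel gene, is among the 5, at 12.9 in GIP-GFP and listed at 0 in both tomato sorts.

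**Figure D3:**
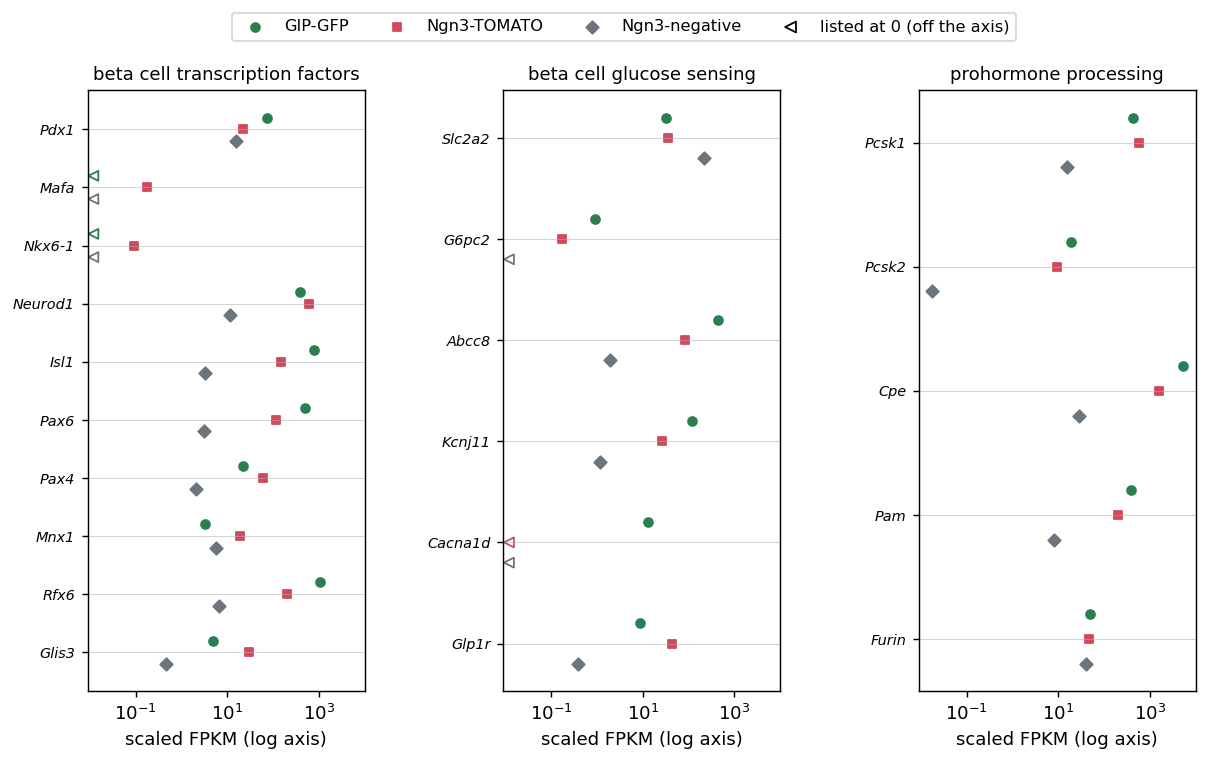
Levels of the beta cell transcription factors, glucose sensing genes and prohormone processing genes named in the text, in scaled FPKM (log axis) in the 3 pooled libraries, with 1 point per library and open triangles for values listed at 0. Isl1, Pax6, Rfx6, Abcc8 and Cpe are high in both reporter libraries, whereas Mafa, Nkx6-1 and G6pc2 lie under 1 or at 0.

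Markers of other cells were read in the same libraries, first those of pancreatic acinar cells. Of 22 pancreatic acinar genes, 12 of 16 tested were at least 2-fold lower in Ngn3-TOMATO than in Ngn3-negative (9.92% of all genes) and 1 was higher (19.2%), and 15 of 16 were lower in GIP-GFP (13.7% of all genes). The trypsinogen gene Prss2 was at 0.682, 0.651 and 25.1 scaled FPKM, and the acinar factor gene Ptf1a was listed at 0 in all 3. Of the 22 genes, 7, 6 and 4 were listed at 0. Cela2a, listed at 0 in both reporter libraries and at 54.7 in Ngn3-negative, is counted among the lower ones. The 1 gene higher in Ngn3-TOMATO was the colipase gene Clps, at 68.4, 1113 and 227.9, which carried nearly all of the summed acinar level of 1172 in Ngn3-TOMATO, beside sums of 112.4 in GIP-GFP and 548.2 in Ngn3-negative. The part of pancreatic tissue in the insulin signal was not tested.

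Ngn3-TOMATO was also the library richest in goblet and Paneth cell transcripts. The 6 goblet markers summed to 5356, 170915 and 30934 scaled FPKM, and the 5 Paneth markers to 2263, 26760 and 4746. All 11 were above 1 in each library, and their part in the levels of Ins1, Ins2 and Ucn3 was not tested. The 12 enteroendocrine markers summed to 295360, 118607 and 2087. Gip, the gene of the GIP-GFP reporter, made up 241079 of the sum in GIP-GFP and 27979 in Ngn3-TOMATO. It alone was 23.2% of all summed gene values in GIP-GFP. In GIP-GFP against Ngn3-TOMATO, 1 of the 12 was higher and 6 were lower by 2-fold or more, against 8.03% and 8.75% of all genes. Relative to Ngn3-negative, 12 were higher by as much in Ngn3-TOMATO (19.2% of all genes) and 11 in GIP-GFP (21.1%). The 7 enterocyte markers summed to 9625, 6553 and 34265 and the 7 immune markers to 606.1, 112.5 and 436.3, with none of them at 0. Read bases over the listed transcripts came to 592.1, 1380 and 1030 Mb.

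The genes with profiles closest to each of the 4 were found by the distance between log2 levels over the 3 libraries, each gene centred on its own mean, among genes whose highest level was within 4-fold. With 3 libraries many genes can share a profile, and the distances are descriptions. For Iapp the closest of 1540 genes were Gpx3, an extracellular glutathione peroxidase gene, Fev, a transcription factor gene of serotonin cells, Prnp, Asic5 and Adgrg4, at distances of 0.31 to 0.46. Gpx3 was at 1319, 941.7 and 14.3 scaled FPKM. For Ucn3 the closest of 5858 were Lmx1a, Serpina1c, 4930556N09Rik, Pla2g7 and Aqp9, at distances of 0.22 to 0.30. Lmx1a, a transcription factor gene of enterochromaffin cells, was at 2.64, 135.6 and 2.15.

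For Ins2 the closest of 8637 genes were Gsdma, Serpina1e, Slc38a11, Trim14 and Lmx1a, at distances of 0.24 to 0.42. Slc38a11, a member of an amino acid transporter family, was at 2.33, 167.0 and 3.04. For Ins1 the closest of 6336 were Gm15601, Uts2b, Grik4, Ankrd55 and 4921507P07Rik, and Uts2b, the urotensin 2B precursor gene, was at 0.409, 10.2 and 0.365. Serpina1c and Serpina1e are close copies that can share reads. Among the 4 genes themselves, Ins2 and Ucn3 were the closest pair, at a distance of 0.62, and Iapp and Ins2 the farthest, at 4.89. Ins1 and Ins2 are listed at 0 in GIP-GFP and Ngn3-negative. Their distances and closest genes therefore rest in part on the pseudocount, and nothing is read from them. Genes next to the 4 on their chromosomes varied in level. Pyroxd1, 41878 bases from Iapp, was at 26.5, 24.8 and 29.8, and Slco1a6 on its other side stayed under 1. Tubal3, 5411 bases from Ucn3, was at 14.5, 31.0 and 82.3. Akr1c14, 114242 bases from Ucn3 on the other side, was at 47.6, 120.7 and 79.3, highest in Ngn3-TOMATO as Ucn3 was. Igf2os, 8300 bases from Ins2, and both neighbours of Ins1 were listed at 0 in every library. Th, the tyrosine hydroxylase gene that follows Ins2 at 213068 bases, was at 236.4, 52.9 and 0.931, the reverse order of Ins2 between the reporter libraries.

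The promoters of the genes are shown because Iapp and Ins1 are known targets of the same beta cell factors and yet differed between the reporter libraries. Each line holds the 250 bases before the transcription start, 5′ to 3′ on the strand of the gene (RefSeq, GRCm38.p6). Capitals mark CATCTG, an E-box of the kind bound by basic helix-loop-helix factors such as NEUROD1, and TAATG, a core found in sites of homeodomain factors such as PDX1, each searched on both strands. The positions are chr6:142298175-142298424 on the plus strand for Iapp, chr19:52264047-52264296 on the plus strand for Ins1 and chr13:3945350-3945599 on the minus strand for Ucn3. Ins2 was not in the table of promoters.
Iapp: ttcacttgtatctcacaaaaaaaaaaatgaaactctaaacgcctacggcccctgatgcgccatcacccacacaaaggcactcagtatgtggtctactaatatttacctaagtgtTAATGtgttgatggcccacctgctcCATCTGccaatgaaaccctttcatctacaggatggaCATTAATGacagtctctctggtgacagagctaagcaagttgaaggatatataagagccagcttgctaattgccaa
Ins1: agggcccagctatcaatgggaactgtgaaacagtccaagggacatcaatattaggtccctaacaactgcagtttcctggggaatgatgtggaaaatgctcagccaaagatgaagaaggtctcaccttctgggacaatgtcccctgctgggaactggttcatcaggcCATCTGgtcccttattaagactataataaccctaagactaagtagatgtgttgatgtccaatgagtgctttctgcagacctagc
Ucn3: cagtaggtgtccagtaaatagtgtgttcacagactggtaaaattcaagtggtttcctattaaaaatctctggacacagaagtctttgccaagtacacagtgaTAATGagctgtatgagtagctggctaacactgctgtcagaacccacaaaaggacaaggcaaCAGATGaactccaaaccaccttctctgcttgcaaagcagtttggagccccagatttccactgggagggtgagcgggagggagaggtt
CATCTG or its reverse complement CAGATG occurred once in each of these 3 promoters, starting 111 bases before the start in Iapp, 84 in Ins1 and 87 in Ucn3. Over 32851 promoters of the same length 14.4% held it. TAATG or CATTA occurred in Iapp, where a pair of matches overlaps in CATTAATG, and in Ucn3, but not in this window of Ins1, and 23.9% of all promoters held it. Shorter forms of this core were not searched, and the Ins1 window does hold the letters TAAT and ATTA. The exact letters TATAAA, 1 of several forms of the TATA box, were in none of the 3 windows on either strand, against 12.4% of all promoters, and other forms were not searched. A match describes the letters only and says nothing of binding in these cells.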

How the data were processed

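Polyadenylated RNA of 3 sorted cell pools was sequenced on a Genome Analyzer II without RNA amplification, per the labels' protocols. FastQC, TopHat 1.5.0 and Cufflinks were used with build mm10, per the submitters' processing notes. For 59120 UCSC transcripts the authors deposited, per the file headers, coverage (a signal of mean read depth per base), the FPKM with 2 limits, and a status. In the order GIP-GFP, Ngn3-TOMATO, Ngn3-negative the deposited FPKM totals were 1.02e+10, 1.07e+10 and 1.04e+10, so the library term is not the one the name states. File starts were raised by 1 to be 1-based.

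Symbols came from GENCODE M21, matched without strand by shared ends, or by a reciprocal overlap of 0.5 (0.2 where 0.9 of the shorter span lay inside the other), and 51976 received a symbol. FPKM of transcripts of 200 bases or more was summed per symbol, without mitochondrial transcripts, and divided by 1 number so that the mean total was 1000000 per library (scaled FPKM). Values with the status HIDATA (4 transcripts in Ngn3-TOMATO and 9 in Ngn3-negative), and genes at 0 with a transcript of status FAIL, were treated as missing. Where 1 of 2 libraries reached 1 scaled FPKM, a gene was compared as a log2 ratio after a pseudocount of 1, and 2-fold differences were counted. Intervals of 95% took each deposited limit as 2 standard errors. Fragments were estimated as the squared ratio of FPKM to its standard error, which is too low where models of a gene share reads. The methods were tested on simulated data. No test between groups was possible with 1 library per group. Adding 1 symbol synonym from RefSeq, all genes of the 17 lists were matched. The members and lists were chosen with earlier results of these data known. Besides the 4 genes, the rule names the most abundant member and the extremes of each list, every member of lists of 10 or fewer, and the 5 closest profiles. Other genes named from longer lists, and the neighbours on the chromosomes, were chosen after their values were seen. Some list members are counted but not reported here by name. Alternatives were other pseudocounts, scalings, filters, transcript summaries and matches. Biopython 1.88 (alignment), numpy 2.4.6 and pandas 2.3.3 were run in Python 3.11.15, and matplotlib 3.10.9 drew the plots.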

Additional observations from a re-analysis of the deposited data

How the results depend on the processing

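With a pseudocount of 5 the genes past 2-fold in either direction fell from 3921 to 2394 for Ngn3-TOMATO against Ngn3-negative, from 4688 to 3068 for GIP-GFP against Ngn3-negative and from 2307 to 1263 for GIP-GFP against Ngn3-TOMATO. The same pseudocount gave Iapp, relative to Ngn3-negative, log2 ratios of 5.41 in Ngn3-TOMATO and 5.51 in GIP-GFP. It gave Ucn3 a log2 ratio of 4.29 for Ngn3-TOMATO against Ngn3-negative and of -4.06 for GIP-GFP against Ngn3-TOMATO. With a pseudocount of 0.1 the log2 ratio of Ucn3 between Ngn3-TOMATO and Ngn3-negative was 5.86. A larger pseudocount shrinks ratios of low values by construction. With the most abundant transcript alone Ins2 stood at 32.0 scaled FPKM in Ngn3-TOMATO, since its second model is then left out. The alternatives for the levels of Ins1 and Ins2 were chosen after seeing the data. The other 63 of 72 alternative values stayed within 1.5 times the count, or within the counting interval of the value. Scaling to equal totals moved the median log2 ratio of all genes relative to Ngn3-negative, from 0.04 to -0.20 in Ngn3-TOMATO and from 0.07 to -0.14 in GIP-GFP. Ratios of Ins1 and Ins2 were given under no setting, because 1 or both libraries are listed at 0. With shared transcript ends only, Iapp and Ins1 have no matched transcript and no value. No paired analysis was possible because each group has 1 library. Depth limits the low values: Ucn3 in GIP-GFP and Iapp in Ngn3-negative rest on an estimated 32 and 46 fragments.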
